A study of Homo sapiens with 12 samples.

Results

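The genes described here sense double-stranded RNA or pass its signal on, and 8 were chosen by name: IFIH1, DDX58, TLR3, MAVS, EIF2AK2, ADAR, IRF1 and IRF3. They were looked up in m6A peak lists of K1 cells, an established papillary thyroid cancer line and the only line sequenced, which together named 7623 genes. One group of cells was transfected with a control siRNA (si-NC) and the other with siRNA against FTO (si-FTO), so both groups had received short double-stranded RNA. Each group had 3 m6A immunoprecipitation (IP) libraries and 3 input libraries, and the authors deposited 1 list of MACS peaks over input for each IP library, with hg19 positions. A peak is a stretch of transcript enriched in the IP over the input. The choice of the 8 genes used their presence, positions, lengths and ranks in these lists, and IFIH1 was known to be listed under si-FTO alone, so these values are a description and carry no test. With 3 libraries against 3, no exact p under 0.1 is possible for a single gene.

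Double-stranded RNA is a mark of viral infection, and cells sense it in several compartments. MDA5 (from IFIH1) and RIG-I (from DDX58) are helicases of the cytosol that signal through MAVS on mitochondria, and TLR3 senses double-stranded RNA in endosomes. The signal reaches the transcription factor IRF3, which turns on interferon genes. PKR (from EIF2AK2) halts translation when it binds double-stranded RNA. ADAR edits adenosine to inosine in the cell's own duplexes and in this way keeps MDA5 from responding to them. N6-methyladenosine is removed from RNA by the demethylase FTO, which was the target of the knockdown.

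The siRNAs against FTO are shown because one or both are the double-stranded RNA that the si-FTO cells were given. The study lists the sense strands of a pair of siRNAs in DNA letters, here with the closing TT in capitals. The sources used here do not say which of the pair went into which si-FTO library, and the si-NC sequence was not analysed here.
si-FTO-1: tcaccaaggagactgctatTT
si-FTO-2: ctagggttttgcttccagaaTT

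The lists held 8429 to 8999 peaks in the si-NC group and 7921 to 8454 in the si-FTO group. The depth behind a peak is unknown, since reads were not analysed here, and a gene with no listed peak may still be methylated or may not be expressed. Peaks give no mRNA level, and the knockdown of FTO could not be checked from them. The list of si-NC replicate 2 stood apart in the authors' false discovery rate (FDR), with a median of 99.6%, where the other lists had medians of 41.15% to 50.4%. Of 8 thyroid follicular markers, FOXE1 was in all 6 lists and HHEX in 4, and no peak was listed for TG, TSHR, SLC5A5, PAX8 or NKX2-1. Of 8 markers of immune, endothelial and stromal cells, CD14 and COL1A1 had peaks in all 6 lists and the other 6 in none. No source used here tells whether the libraries of a group came from separate cultures, so the SDs below cover these libraries and may be technical.

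Some double-stranded RNA sensing genes had listed peaks in K1 cells, and none was in every list. Of the 8 genes, 5 had a peak in at least 1 list (IFIH1, TLR3, ADAR, IRF1 and IRF3), and no peak was listed for DDX58, MAVS or EIF2AK2. Among related genes of the pathway, 102 of 179 had a peak. None of the 5 members with a peak was in all 6 lists, where 49.0% of the 7623 genes with a peak were. Genes are called si-FTO-exclusive here when each of the 3 si-FTO lists held a peak and the si-NC lists held none, and si-NC-exclusive in the opposite case. IFIH1 was the one si-FTO-exclusive member, a pattern shared by 2.28% of all genes with a peak, and no member was si-NC-exclusive, beside 2.75% of all genes. TLR3, IRF1 and IRF3 had peaks in both groups, as did 75.2% of all genes. ADAR was in exactly 1 list (13.4% of all genes), TLR3 and IRF3 in 2 (9.34%), IFIH1 in 3 (9.97%) and IRF1 in 4 (7.71%). The si-NC lists of replicates 1, 2 and 3 named 0, 3 and 2 members, and the si-FTO lists 1, 3 and 3. The counts of the groups overlapped.

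**Figure D1:**
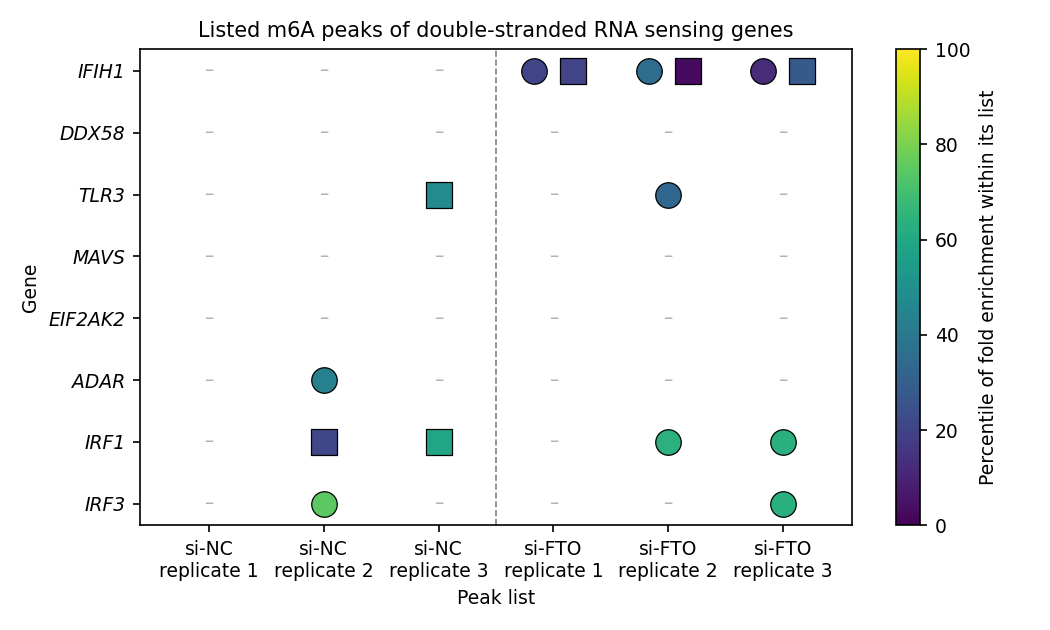
Listed peaks of the 8 genes (rows) in the 3 si-NC and 3 si-FTO peak lists (columns). Each symbol is 1 peak, circles and squares mark the lower and the higher site of a gene on its chromosome, the color gives the percentile of fold enrichment within the list, and a dash marks no listed peak. IFIH1 fills the si-FTO columns and DDX58, MAVS and EIF2AK2 are empty.

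The 15 peaks of these genes had low scores within their lists, while their fold enrichment ranked low for IFIH1 and higher for IRF1 and IRF3. Fold enrichment of IP over input is not on a common scale between lists, so a peak is given by its percentile among the peaks of its own list. By fold enrichment, the 15 peaks ranged from percentile 2.93 to 74.97 with a median of 34.8, and 10 of them stood under percentile 50. Those 10 include all 6 peaks of IFIH1, and the 5 at or above percentile 50 were 3 of the 4 peaks of IRF1 and both peaks of IRF3. By the score that MACS derives from the p-value of a peak, all 15 stood under percentile 50, from 4.37 to 42.6. The authors' FDR of these peaks was 53.6% to 100%. Merged over the lists, the peaks formed 8 sites, of which 4 were listed in si-FTO alone, 3 in si-NC alone and 1 in both groups. Of all 12995 merged regions in the lists, 65.2% were in both groups. The 2 IFIH1 sites were si-FTO-exclusive, as were 2.92% of all regions, and no member site was si-NC-exclusive, beside 3.20%.

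Promoter sequences, which the choice of genes did not use, were searched for 1 motif of interferon-responsive genes. The interferon-stimulated response element, which interferon regulatory factors such as IRF1 and IRF3 bind, has a core of GAAA, any 2 bases and GAAA. It was searched on both strands in RefSeq promoters of build GRCh38.p14, from 250 bases before to 50 bases after the start of a gene. Of the 8 members 7 matched a promoter, and 3 of these, IFIH1, TLR3 and EIF2AK2, held the core, beside 3.57% of all 35116 promoters and 4.38% of 27305 genes. The windows are shown with the core in capitals, reading toward the gene.
IFIH1: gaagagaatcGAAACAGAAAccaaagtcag
EIF2AK2: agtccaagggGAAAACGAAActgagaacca
TLR3: caagctttacTTTCACTTTCgagagtgccg

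The IFIH1 window is chr2:162318686-162318715 on the minus strand of GRCh38.p14, and its core starts 21 bases before the start of the gene. IFIH1 held another 2 matches, TTTCCTTTTC and TTTCTGTTTC, which overlap each other and start 159 and 153 bases before it. The EIF2AK2 window is chr2:37156967-37156996 on the minus strand of the same build, with the core starting 6 bases before the gene. The TLR3 window is chr4:186069142-186069171 on the plus strand, and its core reads on the other strand, starting 4 bases before the gene. The letters were not found in the windows of DDX58, MAVS, ADAR or IRF1. Among related genes with a promoter, the core was held by 21 of 30 interferon-stimulated genes, 6 of 11 sensors and effectors of double-stranded RNA and 5 of 17 interferon, receptor and signaling genes. It was held by 2 of 23 adaptors and kinases, 1 of 27 regulators of RIG-I, MDA5 and MAVS, 1 of 16 other interferon regulatory factors and partners, 0 of 14 other proteins that bind or edit double-stranded RNA and 0 of 2 other kinases of eIF2alpha. The members with the core include the si-FTO-exclusive IFIH1, TLR3 with 1 peak in each group, and EIF2AK2 with no listed peak.

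IFIH1, which encodes the sensor MDA5, had a pair of separate m6A peaks in every si-FTO list, while the si-NC lists held no IFIH1 peak. The gene lies on the minus strand, so that higher positions are nearer its start. The upstream site was listed as the same interval in the 3 si-FTO lists, chr2:163174365-163175218, a length of 854 bp, assigned to transcript NM_022168. Its deposited fold enrichment in the si-FTO lists was 4.89, 3.44 and 5.37 by replicate number. These folds stood at percentile 20.3, 2.93 and 27.9 of their lists, so the rank was lowest in replicate 2. The FDR of the upstream peak was 54.7%, 80.5% and 59.8%, again with replicate 2 as the weakest. Identical intervals are common in these lists, since 46.9% to 62.7% of the peaks of one list had the same ends in another.

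The downstream IFIH1 site lay 6921 bp away and was assigned to transcript ENST00000421365. Its end was at position 163167443 in all 3 si-FTO lists, and its start at 163166778, 163166879 and 163166877 in replicates 1, 2 and 3. The lengths were thus 666, 565 and 567 bp, with 565 bp common to all. Its fold enrichment was 4.91, 5.80 and 4.33, at percentile 20.6, 34.8 and 12.3, and its FDR was 72.0%, 61.25% and 68.95%. The stronger of the IFIH1 peaks was the downstream one in replicates 1 and 2 and the upstream one in replicate 3. By score the stronger peak of replicate 1 was the upstream one, as the downstream peak stood at percentile 4.37, and the upstream peak of replicate 2 stood at percentile 5.38. The scores of these weak peaks, 60.79 and 62.22, lay close to 50, at which the lists begin.

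Taking the strongest peak in each list, IFIH1 stood at percentile 27.8 ± 7.10 (SD, n = 3 libraries) of fold enrichment in the si-FTO group. The summed length of its peaks was 1453 ± 57.7 bp (SD, n = 3). When peaks under percentile 25 were left out of every list, IFIH1 was lost from si-FTO replicate 1, and 0 members were then si-FTO-exclusive. When all lists were shortened to 7921 peaks, IFIH1 was still si-FTO-exclusive but 1 of its 2 sites was not, as the upstream peak of replicate 2 was dropped. No peak under another gene name lay within 5000 bp of either site, and FAP and GCA, next to IFIH1 in RefSeq, had no listed peak.

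**Figure D2:**
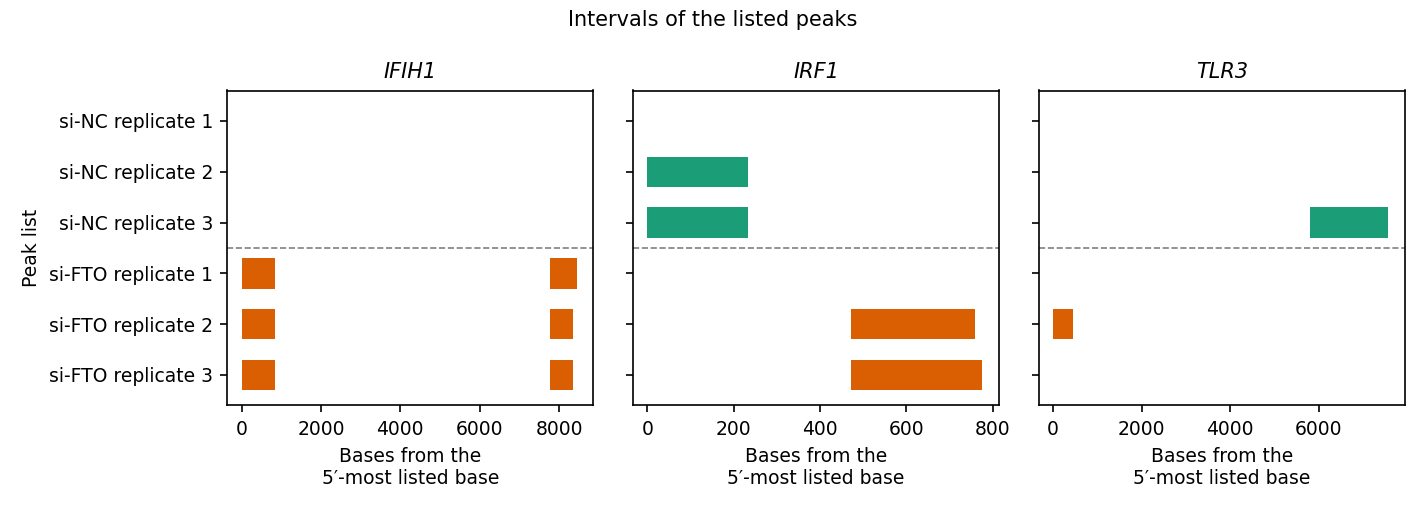
Intervals of the listed peaks of IFIH1, IRF1 and TLR3 in each peak list (rows), by distance in bases from the listed base nearest the start of the gene. Green bars are si-NC lists and orange bars si-FTO lists. For IRF1 and TLR3 no bar of one group overlaps a bar of the other, and IFIH1 has no si-NC bar. IRF3, not drawn, had the same interval in both groups. Of all 5733 genes listed in both groups, 2.18% had no common site, and 9.09% of those in at most 4 lists.

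Among the 174 si-FTO-exclusive genes, 12 had at least 2 intervals in each si-FTO list, IFIH1 among them. The others were ARHGAP25, CCDC117, HOXA3, IGSF10, IQCD, LARP4B, MEOX1, MTUS1, NIM1K, SRXN1 and UBE2N. The share of all genes with as many intervals per list was not counted. UBE2N makes ubiquitin chains that are used in signaling from RIG-I and Toll-like receptors. The pattern most like that of IFIH1 was sought among 129 si-FTO-exclusive genes that had 1 interval at a common site in each si-FTO list, and the stronger peak of IFIH1 stood for it. Likeness was the largest difference from IFIH1 in percentile over the 3 si-FTO lists. TIMM21, a subunit of the mitochondrial import machinery, was nearest with a difference of 3.51 percentile points. ECI2 followed with 3.999, HS6ST2 with 5.44, RAE1 with 5.81 and ABCA5 with 9.40.

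The other sensors had fewer peaks than IFIH1 or none. TLR3, the endosomal receptor, had 1 peak in si-FTO replicate 2 and 1 in si-NC replicate 3, at different sites. The peak of si-FTO replicate 2 was chr4:186997767-186998214, 448 bp long, with a fold enrichment of 5.69 at percentile 33.2. The peak of si-NC replicate 3 was chr4:187003576-187005326, 1751 bp long, with a fold enrichment of 6.80 at percentile 47.3. Both were assigned to NM_003265, a transcript of the plus strand, and 5361 bp lay between them. The si-NC peak was therefore the one farther from the start of the gene, and neither site was found in a second library. DDX58, the gene of RIG-I, had no peak under that name, its current RefSeq symbol RIGI or any synonym checked. TOPORS, next to it on chromosome 9 in RefSeq, had a peak in all 6 lists, and ACO1, on its other side, had none.

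DHX58 encodes LGP2, the third RIG-I-like helicase, which binds double-stranded RNA but lacks the signaling domains of the others. It was singled out after its values were seen. DHX58 was listed in si-FTO replicates 2 and 3 and in no si-NC library. The interval was the same in both, chr17:40253422-40253964, with a fold enrichment of 6.05 and 6.24 at percentile 38.3 and 41.1. DHX58 was not listed in si-FTO replicate 1 and so was not si-FTO-exclusive. Among related genes, PCBP2, SMURF1, PLK1, SEC14L1, TRAF2 and EIF2AK3 had the opposite pattern, with a peak in 2 si-NC lists and no si-FTO list. The share over all genes was not counted for either pattern.

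MAVS, the mitochondrial adaptor of RIG-I and MDA5, had no listed peak in any library. Its neighbors AP5S1 and PANK2 were each listed in 1 library, AP5S1 in si-NC and PANK2 in si-FTO.

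The effector and the editing enzyme were nearly absent from the lists. EIF2AK2, the gene of the kinase PKR, had no listed peak. Of its neighbors, GPATCH11 had a peak in all 6 lists and SULT6B1 in none. ADAR had 1 peak, in si-NC replicate 2, at chr1:154580468-154580724. It was 257 bp long, had a fold enrichment of 6.60 at percentile 43.3, and was assigned to NM_001111. Its FDR was 100%, a value shared by 4216 of the 8458 peaks of that list. Without si-NC replicate 2, ADAR had no peak and 4 members were listed.

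IRF1, a transcription factor that drives antiviral and interferon-stimulated genes, was listed in both groups but at different sites. In si-FTO replicates 2 and 3 the peak ran from 131825710 and from 131825694 to 131825996 on chromosome 5, with lengths of 287 and 303 bp. Its fold enrichment was 8.19 and 8.32, at percentile 63.7 and 63.5. In si-NC replicates 2 and 3 the peak was chr5:131826237-131826469 in both, 233 bp long, with a fold enrichment of 5.10 and 7.77 at percentile 21.1 and 59.0. The si-FTO percentiles were close to each other, at 63.6 ± 0.161 (SD, n = 2 libraries), and the si-NC ones far apart, at 40.0 ± 26.7 (SD, n = 2). The FDR was 61.3% and 60.7% in si-FTO and 100% and 57.9% in si-NC, with the 100% in replicate 2. By score the si-FTO peaks averaged percentile 29.3 and the si-NC peaks 30.5.

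The IRF1 sites were 240 bp apart and named different transcripts, ENST00000458069 in si-FTO and ENST00000437654 in si-NC. IRF1 lies on the minus strand, so the si-NC site was nearer the start of the gene. Replicate 1 of either group had no IRF1 peak. IRF1 and TLR3 were 2 of the 3 members listed in both groups, and neither had a site common to the groups. Of all 5733 genes listed in both groups, 2.18% had no common site, and of the 1188 of these found in at most 4 lists, 9.09%.

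IRF3, the factor that carries the signal of RIG-I, MDA5 and TLR3 to the nucleus, was the member with a site in both groups. The interval chr19:50167931-50169114, 1184 bp long and assigned to uc002poz.1, was listed in si-NC replicate 2 and in si-FTO replicate 3. Its fold enrichment was 10.1 at percentile 74.97 in the si-NC list and 8.34 at percentile 63.6 in the si-FTO list, with an FDR of 100% and 56.4%. The si-NC value was the highest percentile of any member peak. The site was not common to the groups without si-NC replicate 2 or without si-FTO replicate 3. The nearest peak of another gene belonged to SCAF1, 6025 bp away.

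For 4 of the 5 members with a peak, the strongest peak had a higher median percentile than genes found in the same number of lists. Over all genes, the median percentile of the strongest peak was higher the more lists held the gene, from 21.8 for genes in 1 list to 68.5 for genes in 6. IFIH1, in 3 lists, had a median of 27.9 beside 32.6 for the 760 genes in 3 lists. ADAR, in 1 list, stood at 43.3 beside 21.8. TLR3 and IRF3, in 2 lists each, had medians of 40.2 and 69.3 beside 26.6. IRF1, in 4 lists, had a median of 61.2 beside 37.3. These differences were not tested.

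**Figure D3:**
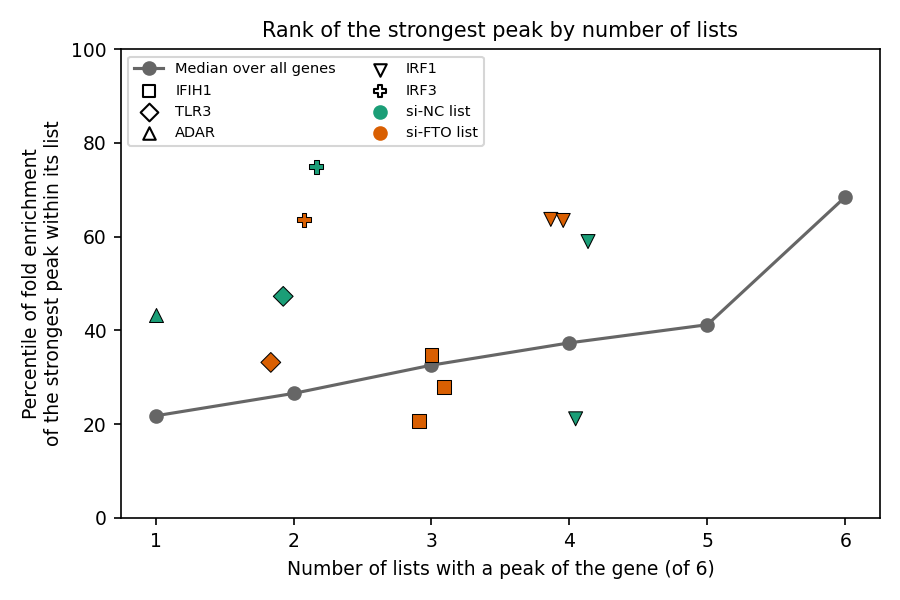
Percentile of fold enrichment of the strongest peak within its list, by the number of lists that hold the gene. Gray points joined by a line are medians over all genes, and other symbols are the members in each list, with si-NC lists in green and si-FTO lists in orange, spread sideways for clarity. The IFIH1 values of 20.6, 34.8 and 27.9 lie around the median of 32.6.

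Other genes of the pathway were in all 6 peak lists about as often as genes with a peak in general. In 8 lists of related genes, which hold no member, 102 of 179 genes had a peak. Of these 102, 52 were in all 6 peak lists (51.0%, beside 49.0% of all genes with a peak). SMURF2, AZI2 and ATF3 were si-FTO-exclusive (2.94%, beside 2.28% of all genes). PCBP1, IKBKE, EIF2S1 and RELB were si-NC-exclusive (3.92%, beside 2.75%).

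Among sensors and effectors of double-stranded RNA, 12 of 21 genes had a peak and 8 were in all 6 lists. DHX36, a helicase that unwinds RNA structures, ranked highest, with its strongest peak at percentile 97.8 to 99.4. ZNFX1, an antiviral helicase, followed with 95.9 to 97.9 and NLRP1, an inflammasome sensor, with 93.2 to 96.3. IFIT5, which binds RNA with triphosphate ends, ranged from 41.8 to 78.8. No peak was listed for OAS1, OAS2 or OAS3, which make oligoadenylates when they bind double-stranded RNA. Among other proteins that bind or edit double-stranded RNA, 11 of 16 genes had a peak and 5 were in all lists. SON ranked highest at percentile 93.5 to 99.0, and DROSHA and STAU1 were also in all 6 lists.

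Regulators of RIG-I, MDA5 and MAVS had peaks for 18 of 34 genes, with 8 in all 6 lists. YWHAH, TRIM25, MEX3C and MFN2 led these, and TRIM25, a ubiquitin ligase of RIG-I, stood at percentile 66.6 to 85.1. SMURF2, a ubiquitin ligase, had the same interval in all 3 si-FTO lists, chr17:62543718-62543919, at percentile 13.3, 10.6 and 25.1 in replicates 1, 2 and 3. PCBP1, an RNA-binding protein that promotes the loss of MAVS, had the interval chr2:70314585-70316334 in all 3 si-NC lists, at percentile 51.1, 54.1 and 64.4.

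Adaptors and kinases downstream of the sensors had peaks for 23 of 28 genes, with 12 in all 6 lists, among them OPTN, RIPK1, FADD and CFLAR. OPTN ranked at percentile 96.0 to 98.9. AZI2, an adaptor of the kinase TBK1, was listed on chromosome 3 to position 28373445 in all 3 si-FTO lists, at percentile 65.7, 49.0 and 51.4. IKBKE, a kinase that acts on IRF3 beside TBK1, had the interval chr1:206643586-206644041 in all 3 si-NC lists, at percentile 40.5, 83.6 and 53.1. A second IKBKE site was listed in si-NC replicates 1 and 3. EIF2S1, which encodes the eIF2alpha subunit that PKR phosphorylates, had the interval chr14:67849164-67849398 in all 3 si-NC lists, at percentile 30.7, 32.0 and 19.4. TBK1 itself had no listed peak. Of the other kinases of eIF2alpha, EIF2AK4 was in all 6 lists, EIF2AK3 in 2 si-NC lists and EIF2AK1 in none.

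Other interferon regulatory factors and their partners had peaks for 11 of 21 genes, with 6 in all 6 lists, among them CREBBP, JUN, EP300 and NFKBIA. ATF3, a stress-induced transcription factor, had overlapping peaks in the 3 si-FTO lists on chromosome 1, 817, 1720 and 1012 bp long in replicates 1, 2 and 3. They stood at percentile 76.3, 80.3 and 53.5. RELB, a subunit of NF-kappaB, had the interval chr19:45504688-45504943 in all 3 si-NC lists, at percentile 20.7, 10.8 and 20.6.

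Interferons, their receptors and signaling genes had peaks for 8 of 20 genes. PTPN2 and SOCS3, which both restrain cytokine signaling, were in all 6 lists, and no interferon gene on the list had a peak. STAT2 and JAK1, which carry the interferon signal, had none either. Of 36 interferon-stimulated genes, 17 had a peak and 10 were in all 6 lists. SP100 ranked at percentile 88.8 to 96.0, PARP14 at 80.6 to 94.2, SAMD9L at 71.3 to 89.2 and PML at 70.5 to 92.5. None of the 17 with a peak was exclusive to either group. Of all genes with a peak, 2.28% were si-FTO-exclusive and 2.75% si-NC-exclusive, so few would be looked for among 17.

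**Figure D4:**
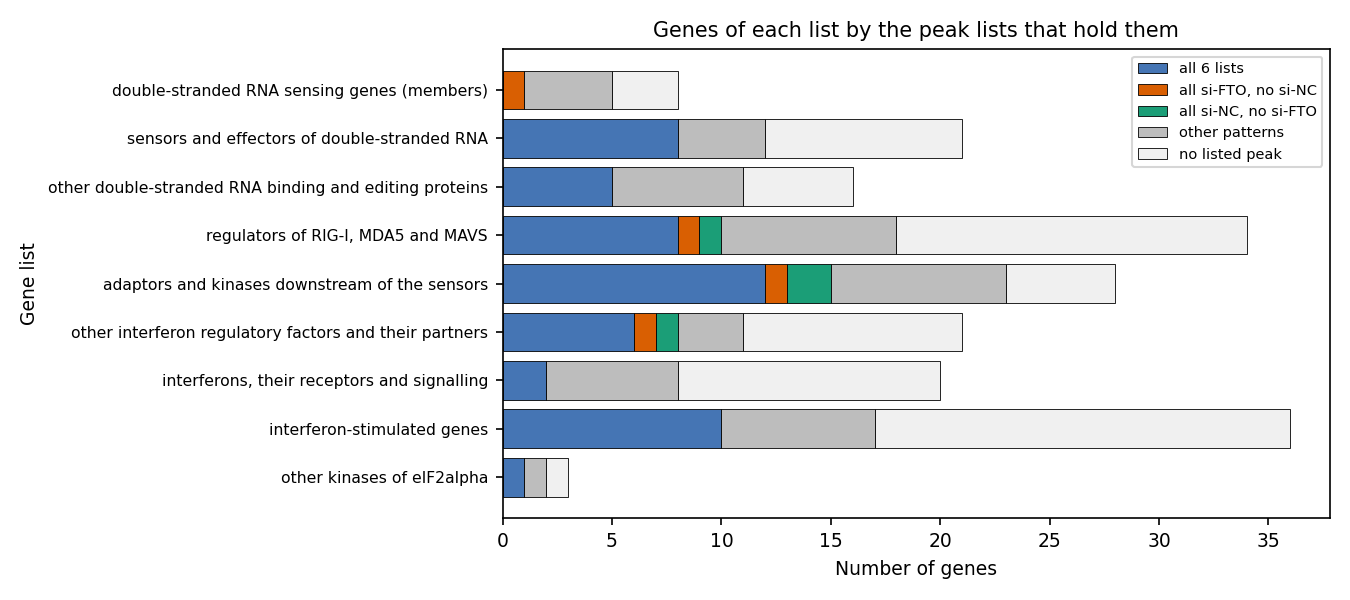
Number of genes of each list by the peak lists that hold them. Bars start at 0 and stack the genes in all 6 lists (blue), si-FTO-exclusive (orange), si-NC-exclusive (green), in other patterns (gray) and with no listed peak (white). The 8 members have no blue part. The 36 interferon-stimulated genes, of which 17 had a peak, have neither orange nor green, as is so for several other lists.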

How the data were processed

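MeRIP-seq libraries of K1 cells, 3 IP and 3 input for si-NC and for si-FTO, were made by the authors by m6A immunoprecipitation and Illumina sequencing. The submitters' processing notes name CASAVA 1.8, BWA and hg19, and the peak identifiers name MACS, with no settings stated. Beside each interval the authors deposited a MACS score, equal to 10 times the negative log10 of p, the ratio of IP to input as fold enrichment, and the FDR as a percent value. Deposited start positions are 0-based and were changed to 1-based. An emptied line in each list (1 per list) was not used here. The genes and gene lists were chosen with earlier results of these data known.

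Peaks were taken by the gene name in the list, ranked within the list by fold enrichment, and merged over lists at an overlap of at least 1 bp, with Python 3.11.15, pandas 2.3.3 and numpy 2.4.6. No test was run on the genes, since their choice used the same values. The counting was checked by writing an exclusive pattern into the presence values of 200 genes of the lists. This checks the code alone and not the calling of peaks. All members are named, with pathway genes in one group alone, up to 4 per list in all 6 lists by their lowest percentile, and the 5 genes nearest to IFIH1. Alternatives left out each library, kept the upper 75 percent of fold enrichment, shortened all lists to equal length, ranked by score, or changed the rules for presence, assignment and overlap. The promoter search, the neighboring genes and the pathway annotation were added after seeing the data. Promoters came from RefSeq (GRCh38.p14), and no position was converted between builds. Results of some genes in the lists are not reported here. The m6A motif within peaks was not analysed here, as it needs the hg19 genome.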

Additional observations from a re-analysis of the deposited data

How the results depend on the processing

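Of 127 values computed under alternatives, 113 kept to the limits set for them and 14 moved. The limit was a set fold change for a count and the SD over libraries for a mean. Some of the 113 could not fall, such as the count of si-FTO-exclusive members without 1 library. The tally is therefore no measure of robustness. With peaks under percentile 25 left out, 0 members and 0 member sites were si-FTO-exclusive, and 2 pathway genes were si-NC-exclusive, since fewer peaks were used. At equal list length 1 member site was si-FTO-exclusive. With at least 2 libraries against none, the looser rule gave 10 pathway genes in si-NC alone and 4 in si-FTO alone. The share over all genes was not counted under this rule, so the counts are not read as a difference between the groups. The genes that the lists annotate with the RIG-I-like receptor pathway were chosen after seeing the data and counted without members. They were 29, of which 11 were in all lists, 1 si-FTO-exclusive and 2 si-NC-exclusive. Of all genes with a peak, 49.0% were in all lists, 2.28% si-FTO-exclusive and 2.75% si-NC-exclusive. Leaving out each library in turn gave 4 to 7 si-NC-exclusive pathway genes (7 without si-NC replicate 2) and 3 to 4 si-FTO-exclusive ones. Member sites in both groups were then 0 to 1. The count of si-FTO-exclusive members was 1 whichever library was left out. It could not fall, since IFIH1 was chosen as listed under si-FTO alone and was in every si-FTO list. The longest IFIH1 peak in place of the sum was 854 bp. Ranked by score, IRF1 in si-FTO moved from percentile 63.6 to 29.3. No paired analysis was possible because the genes were chosen on these values, so that no test was run that a pairing could enter. Depth is unknown, so a peak missing from a list cannot be told apart from one under the calling threshold.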

Other observations

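The lists carry a pathway annotation of their own, which was looked at after seeing the data. Of 31 genes with a peak that are annotated with the RIG-I-like receptor signaling pathway, 11 were in all 6 lists (35.5%, beside 49.0% of all genes with a peak). IFIH1 and AZI2 were si-FTO-exclusive (6.45%, beside 2.28% of all genes), and IKBKE and MAPK11 were si-NC-exclusive (6.45%, beside 2.75%). IFIH1 was chosen as listed under si-FTO alone, so its place among the si-FTO-exclusive genes was known beforehand. Of the 31 genes, 8 are outside the lists used above, and MAPK8, MAPK9 and MAPK11 among these were listed in si-NC alone. MAPK8, which encodes the stress kinase JNK1, had a peak in 2 si-NC libraries at percentile 97.9 and 98.5. MAPK9, the gene of JNK2, stood at percentile 49.7 and 61.6 in 2 si-NC libraries. MAPK11, the gene of p38 beta, stood at percentile 25.4 to 36.2 in the 3 si-NC libraries. These differences were not tested. Peaks under another gene name were looked for at the sites of the members alone, and not at the sites of these genes.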
